A study of Rattus norvegicus with 6 samples.

Results

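The 10 genes of cortical interneurons are described here in brains of newborn rats, 5 from the lineage of the medial ganglionic eminence (Lhx6, Lhx8, Sox6, Satb1 and Erbb4) and 5 from that of the caudal ganglionic eminence (Nr2f2, Prox1, Htr3a, Vip and Npas1). They were taken by symbol from the deposited gene tables, and all 10 had 1 row each among the 30498 genes. The control group held 3 libraries from brains of newborn rats labelled control, and the CR group 3 libraries from newborns of mothers kept on caloric restriction, a model of fetal growth restriction. All pups were delivered by Caesarean section with the brain removed directly afterwards, and strain, sex, feeding schedule and degree of restriction are not given in the sources used here. The labels do not state whether libraries within a group represent different pups or dams, and p-values therefore measure only the spread between these libraries, which may be technical. Levels are FPKM (fragments per kilobase of exon, scaled to the reads assigned to genes), a scale on which levels of different genes can be compared.

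Cortical interneurons are inhibitory neurons that use GABA. They are born not in the cortex but in transient swellings of the ventral forebrain, the ganglionic eminences, and migrate tangentially into it. In the medial eminence the transcription factor NKX2-1 switches on Lhx6, which with Sox6 and Satb1 directs the maturation of the somatostatin and parvalbumin interneurons. The caudal eminence gives rise to interneurons that express the serotonin receptor subunit gene Htr3a, among them those that make vasoactive intestinal peptide (Vip), under the transcription factors encoded by Nr2f2 and Prox1. None of the 10 genes is restricted to cortical interneurons: Lhx8 also marks cholinergic neurons of the basal forebrain, Prox1 granule neurons of the dentate gyrus, Satb1 other cortical neurons, and Nr2f2 neurons of thalamus, hypothalamus and amygdala as well as veins and mesenchyme. In RNA from a whole organ, fewer cells of a type and less RNA per cell cannot be told apart.

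The libraries held between 14030961 and 25734737 assigned reads. The label whole brain was checked with regional markers, since the control libraries held little RNA of the hindbrain: 14 markers of hindbrain and cord, mainly Hox genes, summed to 0.363 to 0.572 FPKM in control and to 16.0 to 78.6 FPKM in CR, and Hoxa2, Hoxa3, Hoxa4, Hoxb3, Hoxb5 and Hoxd3 had no read in any control library. The 10 markers of the dorsal telencephalon, which includes the cortex, summed to 467 to 585 FPKM in control and to 175 to 273 FPKM in CR. The 12 markers of striatum and ventral telencephalon summed to 156 to 196 FPKM in control and to 128 to 157 FPKM in CR. All differences between the groups given below occurred in libraries that also differed in this way, and the part of regional composition in them was not tested.

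Among the medial genes Lhx6, Satb1 and Erbb4 fell in CR, and among the caudal genes Htr3a and Npas1 fell. Lhx6 showed the largest change among the 5, at 1.81-fold lower in CR. Of the 9 genes abundant enough for the fit (averaging 0.5 FPKM or more across all 6 libraries), 5 were lower, 4 missed an adjusted p of 0.05 in limma and no gene was higher. Of those 4, 1 was higher at an unadjusted p under 0.05 (Nr2f2, 0.0194), and limma-voom also called 1 higher. Over all 15247 genes tested, 16.2% were lower, 17.7% were higher and 33.9% were called in either direction. The groups did not overlap for 6 of the 10 genes, beside 50.3% of the tested genes. In 5 of them CR lay below control, as in 24.3% of tested genes, and in 1 above, as in 26.1%. The median log2 fold change was -0.30 over the 5 medial genes and -0.05 over the 4 tested caudal genes, beside 0.01 over all tested genes.

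**Figure D1:**
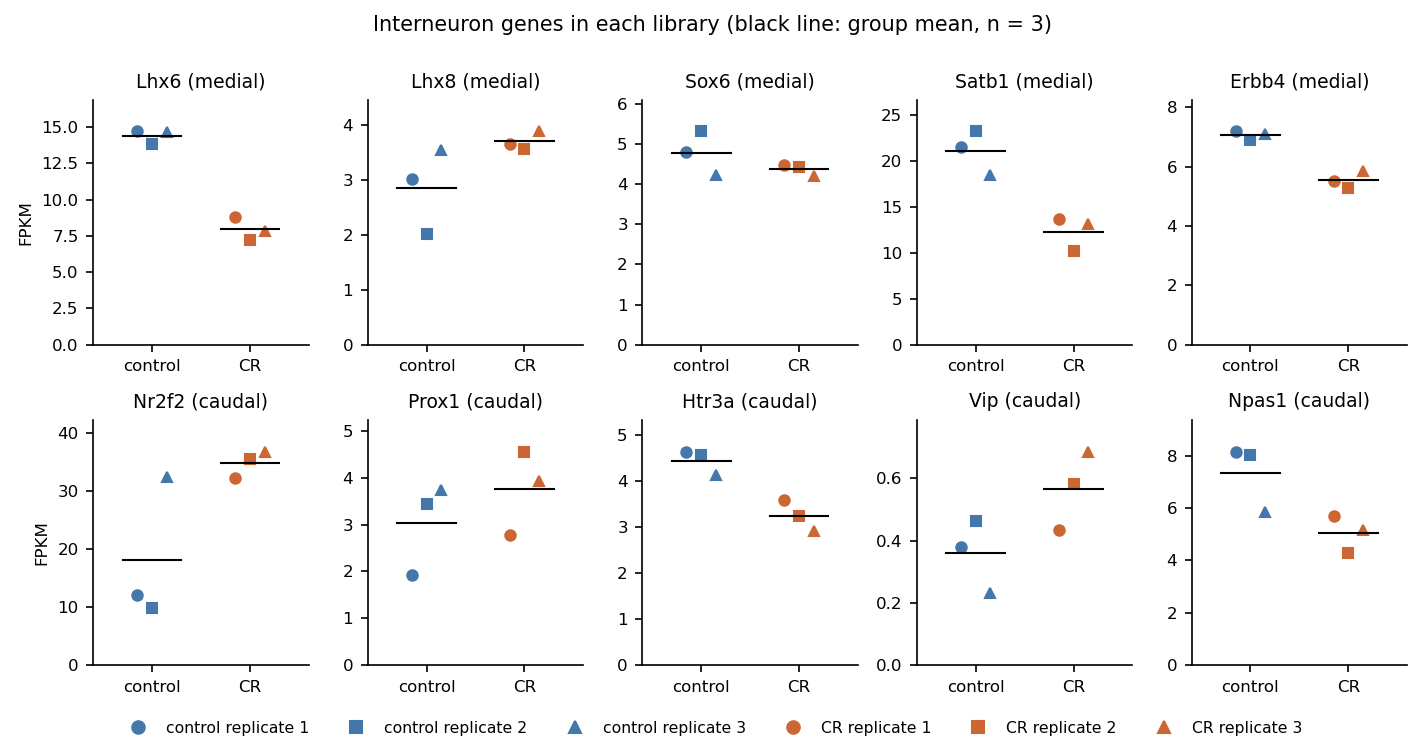
FPKM (y axis, starting at 0) of the 10 interneuron genes in each of the 3 control and 3 CR libraries, with marker shapes for replicate numbers and a black line at the group mean. Lhx6, Satb1, Erbb4, Htr3a and Npas1 have all CR points below all control points, and Nr2f2 in control replicate 3 (32.4 FPKM) sits among the CR points.

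The sequences before the start sites of the 3 medial genes that fell are shown because these genes moved in the same direction. Windows of 250 bases ending just before the RefSeq start (assembly GRCr8) were found for 7 of the 10 genes. Each is printed 5′ to 3′ on the gene's strand, with capitals for 2 short motifs: CAAGTG, the core recognised by NKX2-1, and GGGCGG, the GC box, on either strand (CACTTG and CCGCCC on the other).
Lhx6, chr3:39853424-39853673, minus strand: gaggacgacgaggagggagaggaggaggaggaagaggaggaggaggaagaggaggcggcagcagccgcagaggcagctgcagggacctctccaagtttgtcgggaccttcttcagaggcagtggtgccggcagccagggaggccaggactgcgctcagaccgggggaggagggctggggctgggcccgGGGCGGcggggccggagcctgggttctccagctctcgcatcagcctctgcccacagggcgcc
Satb1, chr9:4989926-4990175, minus strand: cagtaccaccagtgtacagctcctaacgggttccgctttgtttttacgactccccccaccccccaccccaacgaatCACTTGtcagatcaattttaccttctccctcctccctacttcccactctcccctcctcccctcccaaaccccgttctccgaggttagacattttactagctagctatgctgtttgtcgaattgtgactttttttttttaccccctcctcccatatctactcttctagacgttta
Erbb4, chr9:78045607-78045856, minus strand: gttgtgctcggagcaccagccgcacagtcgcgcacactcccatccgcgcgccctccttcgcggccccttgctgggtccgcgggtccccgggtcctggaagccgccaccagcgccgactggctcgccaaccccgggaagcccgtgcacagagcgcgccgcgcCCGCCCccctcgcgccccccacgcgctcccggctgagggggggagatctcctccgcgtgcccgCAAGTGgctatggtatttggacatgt
The Lhx6 window held 1 GC box and no CAAGTG. In the Satb1 window there was 1 CAAGTG on the opposite strand and no GC box, and in the Erbb4 window there was 1 of each. CAAGTG occurred in 11.7% and the GC box in 30.5% of all 33469 windows of this length. The homeodomain core TAATTA, present in 4.86% of all windows, and the SOX-type core AACAAT, present in 10.3%, were in none of the 3. The windows differed in base composition, with 70.4% G and C for Lhx6, 73.6% for Erbb4 and 49.2% for Satb1, where the median of all windows was 51.2%. A match of this kind is a description of the letters and not a binding site.

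Lhx6 encodes the LIM-homeodomain factor that specifies interneurons of the medial eminence. It lies on chromosome 3 from 19433494 to 19456061 on the minus strand of mRatBN7.2 (ENSRNOG00000005996). Its level was 14.7, 13.8 and 14.7 FPKM in control replicates 1 to 3 and 8.78, 7.21 and 7.82 FPKM in the 3 CR libraries (452 to 854 reads). The groups did not overlap, and the control libraries lay within 1 FPKM of each other. Lhx6 fell from 14.4 ± 0.485 to 7.94 ± 0.792 FPKM (mean ± SD, n = 3), a log2 fold change on the log2(FPKM + 1) scale of -0.79 (SE 0.0781, limma adjusted p = 0.000781). Log2 fold changes here are CR minus control and understate the change of low genes.

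Satb1, a chromatin organiser that acts downstream of Lhx6 in maturing interneurons, is on chromosome 9 from 4680920 to 4753251 (ENSRNOG00000012942). It had the highest mean of the 10 genes in control, at 21.5, 23.2 and 18.5 FPKM, and stood at 13.6, 10.2 and 13.1 FPKM in CR. All CR values were below the lowest control value. Satb1 fell 1.71-fold, from 21.1 ± 2.39 to 12.3 ± 1.86 FPKM (adjusted p = 0.00403 for a log2 fold change of -0.73, SE 0.121).

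Erbb4 encodes the neuregulin receptor that migrating medial interneurons carry. It extends over more than a megabase on chromosome 9, from 69531481 to 70596595 (ENSRNOG00000014248). Control libraries were at 7.18, 6.91 and 7.10 FPKM and CR libraries at 5.50, 5.29 and 5.85 FPKM. The separation was small but larger than the spread within either group, at 1.27-fold (log2 fold change -0.30, SE 0.0702, adjusted p = 0.0149). Leaving out CR replicate 2 ended the call (log2 fold change -0.27, adjusted p = 0.0615).

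The other two medial genes did not pass. Sox6, which acts after Lhx6 in positioning and maturation of the same cells, was at 4.80, 5.32 and 4.24 FPKM in control and at 4.48, 4.43 and 4.21 FPKM in CR. Its groups overlapped, and the 95% interval of the log2 fold change ran from -0.32 to 0.11 (adjusted p = 0.421). Lhx8, the paralog of Lhx6 that directs cholinergic fate in the ventral forebrain, was at 3.01, 2.02 and 3.54 FPKM in control and at 3.65, 3.56 and 3.87 FPKM in CR. All its CR values were above its control values, in the opposite direction to Lhx6, but the log2 fold change of 0.30 (95% interval -0.04 to 0.65) had an adjusted p of 0.154. Without control replicate 3, the control library with the highest Lhx8, the log2 fold change was 0.43 (adjusted p = 0.0487), and without control replicate 2, the lowest, it was 0.14 (adjusted p = 0.350).

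Nr2f2, which encodes the orphan nuclear receptor COUP-TFII, was the gene whose control libraries differed most among themselves. It lies on chromosome 1 from 124009181 to 124022031 on the minus strand (ENSRNOG00000010308). Levels were 12.1, 9.86 and 32.4 FPKM in control replicates 1 to 3 (582, 858 and 2053 reads) and 32.2, 35.6 and 36.7 FPKM in CR replicates 1 to 3. Control replicate 3 lay within the range of the CR libraries and the other two control libraries well below it.
The group means were 18.1 ± 12.4 and 34.8 ± 2.36 FPKM, and the log2 fold change of 1.09 (SE 0.369, 95% interval 0.23 to 1.95) did not pass (adjusted p = 0.0554). Without control replicate 3 it was 1.59 (adjusted p = 0.00036), and limma-voom on the reads, which called 38.0% of all tested genes, gave an adjusted p of 0.0108. Without control replicate 1 the log2 fold change was 0.91 (adjusted p = 0.142) and without control replicate 2 it was 0.77 (adjusted p = 0.144). Nr2f2 had the highest mean FPKM of the 10 genes in CR. In control its mean was second to that of Satb1, but in control replicates 1 and 2 Nr2f2 was also below Lhx6.

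Prox1, a homeodomain factor of caudal interneurons and dentate granule neurons, was at 1.93, 3.44 and 3.74 FPKM in control and 2.78, 4.56 and 3.94 FPKM in CR. The groups overlapped, with a log2 fold change of 0.25 (95% interval -0.24 to 0.75, adjusted p = 0.395), and control replicate 1 was the lowest library.
Npas1, a transcription factor with a basic helix-loop-helix and a PAS domain that acts in interneuron progenitors, was at 8.16, 8.03 and 5.85 FPKM in control and 5.72, 4.27 and 5.17 FPKM in CR. Control replicate 3 stood only just above the highest CR library. Npas1 fell 1.45-fold (log2 fold change -0.46, SE 0.14, adjusted p = 0.0387). Npas1 no longer passed once control replicate 1 (adjusted p = 0.106), control replicate 2 (0.109), CR replicate 2 (0.127) or CR replicate 3 (0.0893) was omitted.

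Htr3a encodes the subunit that forms the ion channel of the 5-HT3 serotonin receptor and marks nearly all interneurons of caudal origin. It is on chromosome 8 from 49242020 to 49254389 (ENSRNOG00000006595). Control libraries were at 4.63, 4.55 and 4.12 FPKM and CR libraries at 3.59, 3.24 and 2.90 FPKM, from 142 to 252 reads. The groups did not overlap, and Htr3a fell 1.37-fold (log2 fold change -0.36, SE 0.0947, adjusted p = 0.0232). This decrease did not pass when control replicate 1 (adjusted p = 0.0648), control replicate 2 (0.0617), CR replicate 2 (0.0734) or CR replicate 3 (0.0898) was omitted.
Vip, the neuropeptide gene of one class of caudal interneurons and of the suprachiasmatic nucleus, was close to the limit of detection at birth. It had 10, 22 and 8 reads in control and 18, 28 and 33 in CR, or 0.38, 0.463 and 0.232 FPKM and 0.434, 0.581 and 0.686 FPKM. The groups overlapped, and as Vip was under the filter it was tested on its own (two-sided exact permutation test, p = 0.2, the smallest possible with 3 against 3 being 0.1).

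**Figure D2:**
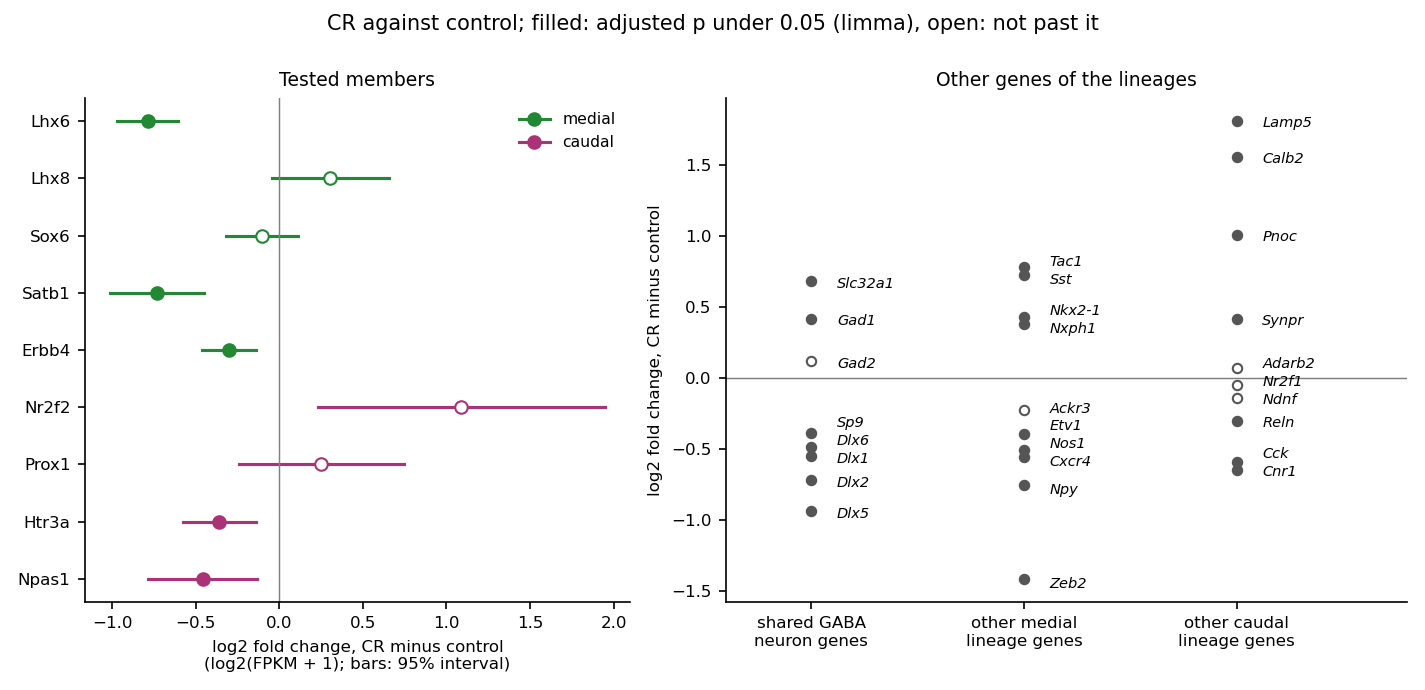
Left, log2 fold change with 95% interval (x axis) of the 9 tested interneuron genes, from -0.79 for Lhx6 to 1.09 for Nr2f2. Right, log2 fold change (y axis) of tested genes of 3 related lists, each point 1 gene, without list members that are not reported here. Filled points passed an adjusted p of 0.05 in limma, and Nr2f2, with the widest interval, is open.

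The 2 gene groups were then set side by side within each library as the mean of log2(FPKM + 1) over the 5 genes of each. Caudal minus medial was -0.92, -0.79 and -0.62 in control replicates 1 to 3 and -0.42, -0.20 and -0.30 in CR replicates 1 to 3, so all CR values were above all control values. Part of this came from Nr2f2 and part from the lower medial mean. With the other 4 caudal genes alone the difference was -1.28, -1.06 and -1.25 in control and -1.06, -0.86 and -0.97 in CR, the groups met at control replicate 2 and CR replicate 1, and the 4-gene caudal mean itself was lower in each CR library than in any control library (1.98 ± 0.0946 and 1.89 ± 0.0359). The medial mean was 3.17 ± 0.0315 in control and 2.85 ± 0.0777 in CR, without overlap. The 5-gene caudal mean was 2.40 ± 0.137 in control and 2.54 ± 0.0479 in CR, with overlap. These scores are descriptions and were given no test. Whether the 2 gene groups separate the lineages in these brains was not tested either.

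Among genes that both lineages share, those called split by role. Of 10 genes common to forebrain GABA neurons, all tested, 6 were lower, 3 were higher and 1 did not pass, with a median log2 fold change of -0.44. The 6 lower ones were all transcription factor genes. They included Dlx5 (27.3 ± 2.85 to 13.8 ± 0.883 FPKM, log2 fold change -0.93, adjusted p = 0.000577) and Dlx2 (17.1 ± 4.30 to 9.82 ± 0.602 FPKM, -0.72, adjusted p = 0.0101), which encode homeodomain factors of the ganglionic eminences. Among the 3 higher genes were Slc32a1, which encodes the vesicular GABA transporter, and Gad1, which encodes a GABA-synthesising enzyme, both used by inhibitory neurons of all brain regions. Both are outside the rule for named genes and were chosen after their values were seen. Slc32a1 rose from 27.7 ± 3.27 to 44.9 ± 3.24 FPKM and Gad1 from 31.2 to 41.7 FPKM (log2 fold change 0.42, SE 0.112). Gad1 no longer passed once control replicate 1 (adjusted p = 0.0508) or any 1 CR library (0.0505 to 0.0889) was omitted. It also did not pass when low genes were kept (adjusted p = 0.0589). The gene that did not pass was Gad2, which also encodes a GABA-synthesising enzyme (26.0 ± 0.266 to 28.4 ± 2.49 FPKM, adjusted p = 0.196). Gad2 was likewise named after its value was seen. In the same CR libraries the summed hypothalamic markers were 47.9 to 69.5 FPKM, and in control 6.27 to 7.55 FPKM, and the part of other regions in the rise of the GABA genes was not tested. Leaving out 1 library at a time gave 4 to 6 lower and 2 to 3 higher genes in that list.

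Lhx6 was also read against these genes. Dlx1, Dlx2, Dlx5 and Dlx6 summed to 110, 87.4 and 81.7 FPKM in control and to 61.1, 52.2 and 55.7 FPKM in CR. The ratio of Lhx6 to that sum was 0.133, 0.158 and 0.179 in control and 0.144, 0.138 and 0.140 in CR, so the CR values lay inside the control range. Against Gad1 the ratio of Lhx6 was 0.464, 0.534 and 0.408 in control and 0.22, 0.159 and 0.196 in CR, with no overlap. Htr3a to the Dlx sum was 0.0481 ± 0.00544 in control and 0.0577 ± 0.00504 in CR. By library it was 0.0419, 0.0520 and 0.0504 in control and 0.0588, 0.0620 and 0.0522 in CR. The groups did not overlap, but CR replicate 3 was only just above control replicate 2. These ratios, and those with paralogs below, were chosen after the levels of the 10 genes had been seen.

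Other genes of the medial lineage moved in both directions. Of 13 listed, 11 were measured and tested, 6 were lower, 4 were higher and 1 did not pass (4 to 6 lower and 3 to 4 higher without 1 library), with a median log2 fold change of -0.39. The largest change was in Zeb2 (70.6 ± 7.01 to 26.4 ± 6.37 FPKM, log2 fold change -1.41, adjusted p = 0.00137), a factor needed for interneuron fate and migration that cortical pyramidal neurons also express. Tac1, the tachykinin precursor gene of several neuron classes, rose from 19.6 ± 2.02 to 34.5 ± 1.84 FPKM (log2 fold change 0.78, adjusted p = 0.000863). Somatostatin and neuropeptide Y, products of medial interneurons but also of hypothalamic neurons, went opposite ways: Sst rose from 137 ± 33.5 to 224 ± 12.8 FPKM and Npy fell from 222 ± 56.6 to 129 ± 13.3 FPKM. Both were named after their values were seen, and Npy no longer passed when CR replicate 2 was omitted (adjusted p = 0.0627). Nkx2-1, the factor upstream of Lhx6 that the hypothalamus also expresses, was among the 4 higher genes (3.08 ± 0.590 to 4.49 ± 0.632 FPKM, adjusted p = 0.0442), also named after its value was seen. Omitting control replicate 2 (adjusted p = 0.110), control replicate 3 (0.0694), CR replicate 2 (0.145) or CR replicate 3 (0.132) ended that call.

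Other caudal genes showed no common direction. Of 12 listed, 10 were tested, and higher levels in CR were called for 4 and lower levels for 3, with a median log2 fold change of 0.01. The 3 largest changes were increases, in Lamp5 (1.66 ± 0.0833 to 9.05 ± 4.98 FPKM, log2 fold change 1.81, adjusted p = 0.00348), a membrane protein gene of neurogliaform interneurons, Calb2 (30.0 ± 9.77 to 87.4 ± 11.0 FPKM, 1.56, adjusted p = 0.00244), which encodes the calcium-binding protein calretinin, and Pnoc (7.18 to 15.4 FPKM, 1.01, SE 0.106, adjusted p = 0.000965), the precursor of nociceptin. Calb2 is also abundant in thalamus and brainstem. Within the CR group Lamp5 was at 6.37, 5.98 and 14.8 FPKM, and CR replicate 3, the highest, was also the library with the highest sum of hindbrain and cord markers (78.6 FPKM). That sum was 17.2 and 16.0 FPKM in CR replicates 1 and 2. The part of other regions in the rise of Lamp5 was not tested.

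Paralogs and protein partners of the 10 genes were examined from a list of 13, of which 10 were tested. Lower levels in CR were called for 4 and higher levels for 2, of which 1 was called without CR replicate 3. The decreases included Sox5, the close relative of Sox6 in deep-layer neurons (10.7 ± 1.01 to 4.93 ± 0.573 FPKM, log2 fold change -0.98, adjusted p = 0.000877), and Ldb2, which encodes a LIM-domain-binding cofactor of LHX proteins (46.9 ± 5.31 to 24.9 ± 2.41 FPKM, -0.88, adjusted p = 0.00108). Dorsal telencephalic markers had 8 of 10 members lower.

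Ratios within a library showed how unequally paralogs differed. Lhx6 to Lhx8 was 4.89, 6.85 and 4.14 in control and 2.40, 2.02 and 2.02 in CR, with no overlap. Sox6 to Sox5 was 0.484, 0.45 and 0.414 in control and 0.83, 1.03 and 0.824 in CR, again with no overlap. The share of Sox6 in this pair was thus larger in every CR library, beside a fall of Sox5. Nr2f2 to Nr2f1, the COUP-TFI gene, was 0.286, 0.226 and 0.621 in control and 0.687, 0.826 and 0.848 in CR. Nr2f1 itself was at 46.0 ± 5.44 FPKM in control and 44.4 ± 2.11 in CR (adjusted p = 0.705).

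**Figure D3:**
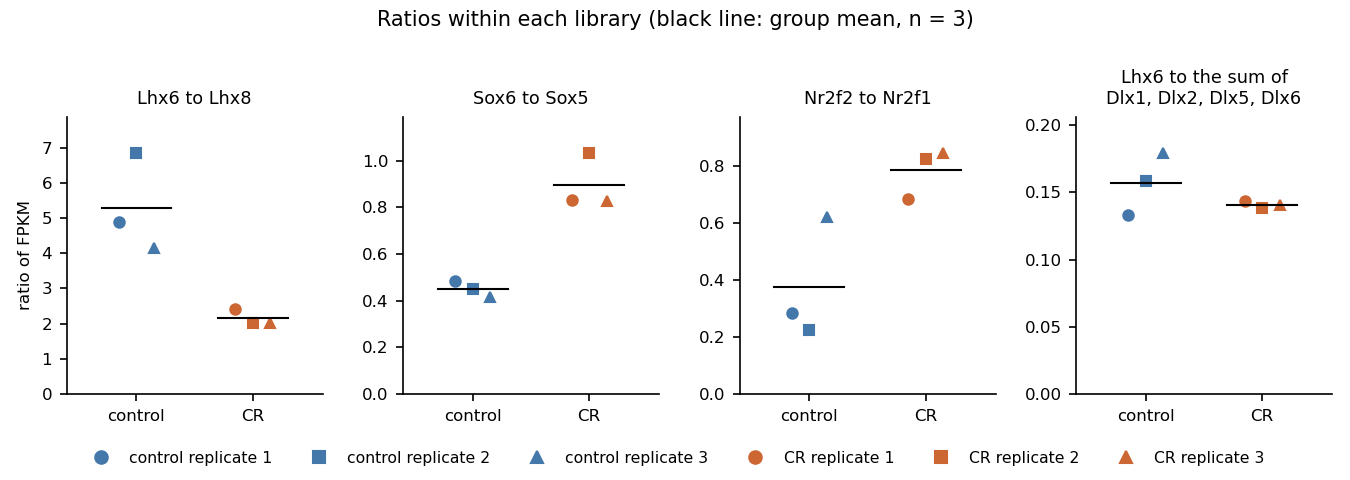
Ratios of FPKM within each library (y axes, starting at 0) for 3 pairs of paralogs and for Lhx6 against the summed Dlx1, Dlx2, Dlx5 and Dlx6, with the group mean as a black line. The Lhx6 to Lhx8 ratio is 4.14 to 6.85 in control and 2.02 to 2.40 in CR, while Lhx6 to the Dlx sum overlaps between the groups.

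Ligands and partner receptors of ErbB4 were examined beside Erbb4. Of 10 genes, 7 were tested and none passed in limma in either direction, at an unadjusted p under 0.05, in limma-voom or in any fit that left out 1 library. Nearest to the threshold were Erbb2 (1.12 ± 0.189 and 1.31 ± 0.0313 FPKM, with all CR values above all control values, adjusted p = 0.399) and Hbegf (7.25 ± 0.475 and 6.73 ± 0.504 FPKM, adjusted p = 0.405). The most abundant neuregulin gene, Nrg3, named after its value was seen, was at 12.6 ± 0.759 and 12.3 ± 0.821 FPKM (adjusted p = 0.769). In the peptide family of Vip, 4 of 6 genes were tested, 2 were higher and 2 did not pass. Ghrh, the growth hormone-releasing hormone gene of the hypothalamus, rose from 0.286 ± 0.193 to 1.53 ± 0.429 FPKM (adjusted p = 0.00445), and Adcyap1r1, the receptor gene for the related peptide PACAP, from 21.5 ± 1.35 to 29.0 ± 1.62 FPKM (adjusted p = 0.0033). Among cholinergic neuron genes of the basal forebrain, read beside Lhx8, 3 of 6 were tested, and Slc5a7, the choline transporter gene, rose from 0.872 ± 0.448 to 2.37 ± 0.572 FPKM (adjusted p = 0.013) while 2 did not pass. Slc5a7 was highest in CR replicate 3 (2.96 FPKM), also the library with the highest sum of hindbrain and cord markers (78.6 FPKM). The part of other regions in its rise was not tested.

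The genes nearest to Lhx6 and to Nr2f2 over the 6 libraries were found by the root mean squared difference of centred log2(FPKM + 1), among 11001 other genes averaging 2 FPKM or more. For Lhx6 they were Peli1 (difference 0.0199), Fosl2 (0.0237) and Nrm (0.0472). Peli1 was at 22.2, 21.8 and 22.5 FPKM in control and at 13.7, 11.5 and 12.5 FPKM in CR. For Nr2f2 the nearest genes were farther away, at 0.219 for Slc6a20, 0.228 for Wnt4 and 0.252 for Ptgds. Ptgds was at 185, 110.2 and 285 FPKM in control and at 461, 410.0 and 417 FPKM in CR. Each of these 3 genes had its highest control value in control replicate 3, as Nr2f2 did, but unlike Nr2f2 each was lower there than in any CR library.

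Marker sums of regions and cell types in which Nr2f2 is known to be expressed were read in the same libraries. The 4 thalamic markers summed to 3.23, 17.1 and 19.5 FPKM in control replicates 1 to 3 and to 74.3, 110 and 79.6 FPKM in CR, and all 4 were higher in CR. The 6 meningeal markers summed to 62.7, 39.7 and 79.8 FPKM in control and to 90.9, 82.3 and 74.5 FPKM in CR. Hypothalamic markers summed to 7.35, 6.27 and 7.55 FPKM in control. The 6 endothelial markers measured summed to 21.0, 18.2 and 21.1 FPKM in control and to 23.9, 19.6 and 19.3 FPKM in CR. Control replicate 3 was thus the highest control library in all 4 sums. For meninges and endothelium it lay within the CR range, as Nr2f2 did, and for endothelium control replicate 1 did too. Of the endothelial markers 1 was lower, and none was without control replicate 1 or 3 or CR replicate 2 or 3. None of the 6 meningeal markers passed in limma with all libraries (median log2 fold change 0.41), but 2 had an unadjusted p under 0.05, and 3 were higher in limma-voom and 3 without control replicate 3. No marker in these 4 lists was without reads in all libraries, though the hypothalamic gene Rax had none in control. The part of these tissues in the level of Nr2f2 was not tested.

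**Figure D4:**
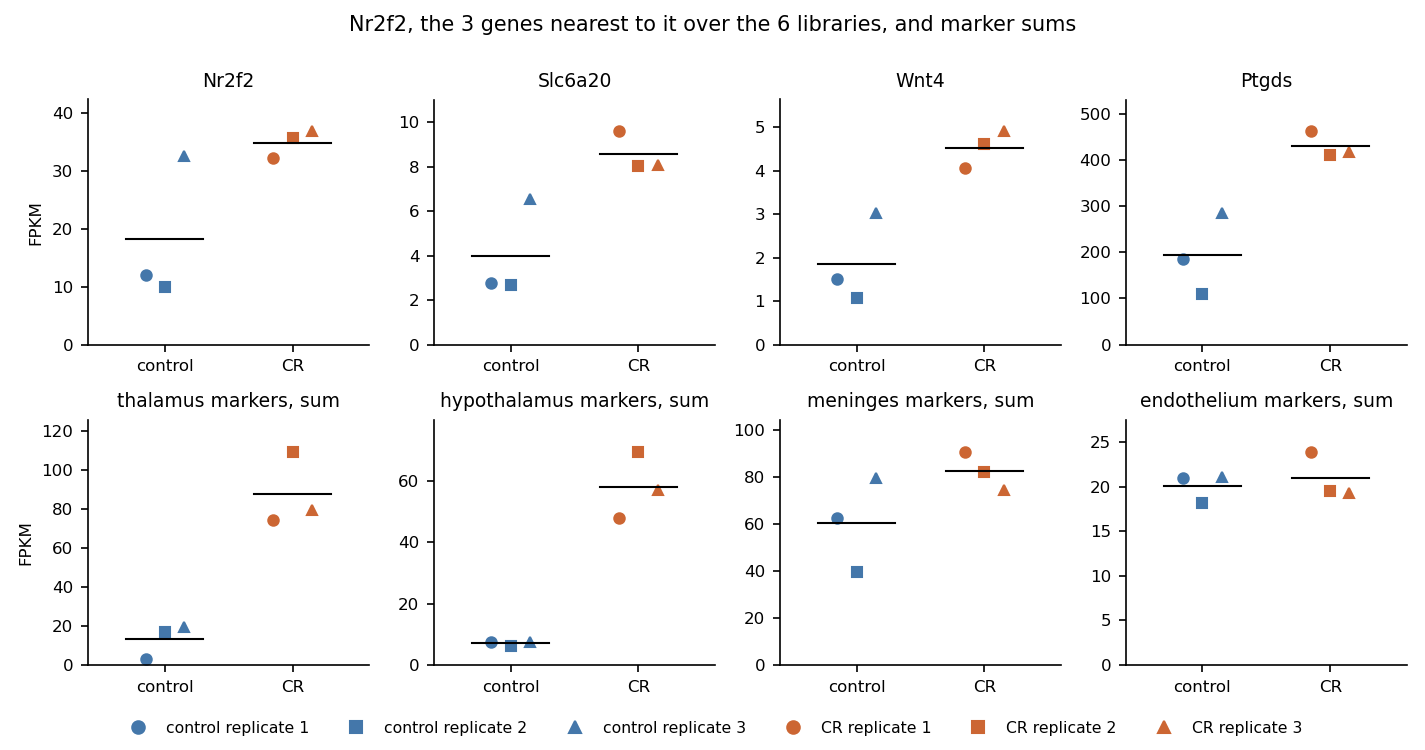
FPKM (y axes, starting at 0) of Nr2f2, of the 3 genes nearest to it, and of 4 marker sums in each library, with the group mean as a black line. Control replicate 3 (blue triangle) is at 32.4 FPKM for Nr2f2 and 79.8 FPKM for the meningeal sum, in both within the CR range, and at 19.5 FPKM for the thalamic sum, below every CR library.

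Markers of the other places where the 10 genes are found were counted in the same way. Of the dentate granule neuron genes, read beside Prox1, 3 of 4 were tested: C1ql2 rose from 0.534 ± 0.145 to 5.37 ± 0.563 FPKM and Dock10 from 1.58 ± 0.180 to 2.77 ± 0.369 FPKM, while Bcl11b, which cortical and striatal neurons also express, fell from 31.1 ± 2.68 to 19.5 ± 2.17 FPKM. The part of other regions in these 3 changes was not tested. Oligodendrocyte precursors express Sox6, and their 6 markers summed to 41.2 to 46.4 FPKM in control and 54.8 to 62.5 FPKM in CR, with 3 of the 6 higher and none lower. In the striatal and ventral telencephalic list 7 of 11 tested members were lower and none was higher, led by Drd1 (5.28 ± 1.29 to 2.17 ± 0.349 FPKM), the dopamine D1 receptor gene of striatal projection neurons. In that list 5 to 7 members were lower when 1 library was left out, and limma-voom called 1 higher. Astrocyte, microglial and pericyte markers had 7 of 8, 4 of 6 and 1 of 5 tested members higher and none lower. With 1 library left out the higher members numbered 4 to 7, 2 to 4 and 0 to 2 in these lists and 1 to 4 among oligodendrocyte precursor markers. Choroid plexus and blood cell markers had none called in limma in either direction, none at an unadjusted p under 0.05 and none in limma-voom, and 3 choroid plexus markers were higher without control replicate 1. In the 3 remaining regional lists, higher members numbered 8 of 8 in hypothalamus, 9 of 11 in midbrain, where the other two were lower, and 6 of 6 in cerebellum. Only 1 midbrain marker was lower without any 1 library other than control replicate 3, and 4 to 5 cerebellar markers were higher when 1 library was left out.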

How the data were processed

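Polyadenylated RNA was measured in 3 control and 3 CR libraries. Per the labels' protocols, TRIzol-extracted RNA was made into stranded libraries (QIAseq and MGIEasy kits). The build mRatBN7.2 and the tools featureCounts 2.0.1, STAR 2.7.10a, cutadapt 1.16, Trimmomatic 0.36 and Trim Galore 0.4.4 are named in the submitters' processing notes; their settings, including strand, are not given in the sources used here. The authors deposited FPKM per Ensembl gene with exon positions and lengths, 1 library per table. FPKM times length was a whole multiple (within 0.05) of 1 read's worth for 100% of values, which gave reads and depth. No annotated gene on the opposite strand overlapped a member; 1 on the same strand overlaps Erbb4 and had no reads.

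Genes averaging 0.5 FPKM or more were tested with limma 3.58.1 (R 4.3.3) on log2(FPKM + 1), with group as the only term and a trend, two-sided, with Benjamini-Hochberg adjustment over all 15247 genes. On simulated data for these genes (dispersion 0.01) it found 0%, 38%, 76% and 98% of genes changed 1.25-, 1.5-, 2- and 4-fold, with 13 of 119 calls on unchanged genes. The real libraries gave 5173 calls. The adjusted threshold was therefore stricter in the simulation, and its rates do not carry over to the real data. Within each group, libraries differed beyond counting noise (mean chi-square per gene 6.63 to 15.6).

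The members and lists were chosen with earlier results of these data known, so lists are given as counts and medians. Listed symbols without a row (Pvalb, Maf, Sp8, Vipr1, Lhx7, Slc18a3, Hoxb2, Cldn5, Flt1, Hbb, Hba1 and Alas2) were not analysed here. Named list genes are up to 3 past the threshold with the largest change, or up to 2 by p if none passed; others are marked. A few list members, which remain in the list counts, medians and sums, are not reported here. Alternatives were pseudocounts of 0.1 and 0.5, no filter, a filter of 2 FPKM, median-ratio and quantile scaling, limma without trend, robust limma, limma-voom with trimmed-mean scaling on the reads, a replicate block, and leaving out each library.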

Additional observations from a re-analysis of the deposited data

How the results depend on the processing

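All 9 tested members kept their direction under all 16 alternatives. Lhx6 and Satb1 passed in all 16, Erbb4 in 15, Htr3a in 11 and Npas1 in 10, and Sox6 and Prox1 passed in none. The number of caudal members called lower, 2, was 0 when low genes were kept (adjusted p = 0.0508 for Htr3a and 0.0832 for Npas1) and 1 for limma without the trend (0.0508 for Npas1), and ranged from 0 to 2 when 1 library was left out. The number of caudal members called higher, 0, was 1 with a mean of at least 2 FPKM and with limma-voom (Nr2f2 in both), and ranged from 0 to 1 when 1 library was left out. The number of medial members called higher, 0, likewise ranged from 0 to 1 (Lhx8, without control replicate 3). For medial members called lower, 3, the range was 2 to 3. The number of all genes called, 5173, ranged from 3243 (without CR replicate 2) to 5037 when 1 library was left out, and from 4445 (replicate block) to 5788 (limma-voom) under the other alternatives. The cause of these changes was not tested.

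With the replicate number as a block, the number of caudal members called higher was 1 (Nr2f2, adjusted p = 0.0330) and no other member's call changed. The numbers were not shown to pair libraries, since the correlations of deviations between same-numbered libraries were 0.0245, 0.0198 and 0.0454. Every library nonetheless correlated best with its own number, which is a hint from the data and not from the design. Depth limits Vip most, with 8 to 33 reads per library.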
